A study of Mus musculus with 22 samples.

Results

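Upstream promoter flanks are the stretches of chromatin between 1 and 3 kb before a transcription start site (TSS). They were taken here as the deposited H3K4me3 regions annotated in the promoter class that ends 3 kb from a TSS, with the middle of the region upstream of that TSS. The rule found 1165 of 26201 listed regions, which were 643 of 13603 in Tg197 against wild-type (WT) cells at 3 weeks, 102 of 2923 at 8 weeks, 256 of 6593 at 11 weeks, and 164 of 3082 in the TNF table, which set WT cells given TNF against untreated ones at 8 weeks. All but 3 regions at 3 weeks and 2 in the TNF table lay wholly upstream of their TSS. Their median length was 1100 bp at 3 and 11 weeks and with TNF, and 1000 bp at 8 weeks.

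The cells were synovial fibroblasts, which form the stroma of the joint lining and had been passaged in culture. The groups were Tg197 cells at 3, 8 and 11 weeks of age, 8 week WT cells given TNF, and untreated WT cells at 3, 8 and 11 weeks, with 3 libraries each, and there was 1 input library. All mice were of a mixed CBA and C57BL/6J strain. Tg197 mice carry a human TNF transgene whose 3′ end is modified, overproduce TNF and develop arthritis, and the series design calls the 3 ages early, established and late. The sources used here do not give the dose and duration of TNF, the sex of the mice or whether each library is a separate animal, so p-values measure only the spread between these libraries. The tables listed regions that differed in the authors' comparison, so a missing region says nothing about the mark there, and the fibroblast label could not be checked by presence. Of 11 synovial fibroblast markers, Col1a1 and Col6a1 had an upstream flank in a table. None of the 7 leukocyte, 5 endothelial and 6 epithelial and nerve sheath markers did, while Ckm of muscle and Sp7, Comp and Adipoq of bone, cartilage and fat did. These counts hold only for the listed genes. The B cell receptor gene Cd79b, outside the leukocyte list, had an upstream flank at 8 and 11 weeks.

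H3K4me3 is laid down by the SET1 and MLL methyltransferase complexes on the nucleosomes beside the start of active genes. The mark usually peaks just downstream of the TSS and thins out toward the flanks, so that a region further upstream often lies at the rim of the domain, under another start, or on an enhancer with a low level of the mark. TNF acts on synovial fibroblasts through its receptors and the transcription factor NF-kB, which induces chemokine and matrix-degrading genes in arthritis.

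Starts that lie under an upstream flank, going by distances, are shown for Sbno2 and Hoxa13. These were the flanks that recurred at 3 and 8 weeks with another annotated start inside them by that measure. The sequences are RefSeq promoters on GRCm38.p6 from 250 bases before to 50 after a start, 5′ to 3′ on the gene's strand, with CG pairs in capitals. Distances between starts were taken within that build and set beside the distances in the deposited mm9 annotation. They were taken from any annotated start of the gene, which was not tied to the deposited TSS, and the flanks themselves were not placed on that build. For Sbno2, a member of the strawberry notch family of transcription regulators, 2 starts 1515 bp apart are given, of which the upstream one (chr10:80102653-80102952, minus strand) holds 17 CG pairs and the downstream one (chr10:80101138-80101437, minus strand) 7.
Sbno2 upstream start: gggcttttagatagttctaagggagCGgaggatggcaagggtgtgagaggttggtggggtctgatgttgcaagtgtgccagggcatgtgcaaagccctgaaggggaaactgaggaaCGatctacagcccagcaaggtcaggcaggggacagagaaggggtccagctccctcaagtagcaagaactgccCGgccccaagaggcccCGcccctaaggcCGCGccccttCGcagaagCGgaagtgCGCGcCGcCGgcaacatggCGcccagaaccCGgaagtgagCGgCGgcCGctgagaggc
Sbno2 downstream start: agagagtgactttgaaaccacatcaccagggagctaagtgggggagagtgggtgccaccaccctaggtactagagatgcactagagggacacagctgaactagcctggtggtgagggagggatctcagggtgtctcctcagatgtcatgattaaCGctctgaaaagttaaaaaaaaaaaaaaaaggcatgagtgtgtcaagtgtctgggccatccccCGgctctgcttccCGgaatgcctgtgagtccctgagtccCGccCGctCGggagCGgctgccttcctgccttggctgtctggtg
Hottip, a long noncoding RNA of the HoxA end that is known to act on neighbouring Hoxa genes, starts 1895 bp upstream of Hoxa13 on the opposite strand. Its start (chr6:52262525-52262824, plus strand) holds 6 CG pairs and that of Hoxa13, a homeobox gene of the distal limb (chr6:52260831-52261130, minus strand), holds 45.
Hottip start: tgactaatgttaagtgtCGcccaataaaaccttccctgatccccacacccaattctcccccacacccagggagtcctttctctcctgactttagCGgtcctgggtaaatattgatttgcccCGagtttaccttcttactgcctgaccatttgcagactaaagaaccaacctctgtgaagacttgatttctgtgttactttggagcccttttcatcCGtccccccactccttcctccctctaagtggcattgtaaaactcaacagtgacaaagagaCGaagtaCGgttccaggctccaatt
Hoxa13 start: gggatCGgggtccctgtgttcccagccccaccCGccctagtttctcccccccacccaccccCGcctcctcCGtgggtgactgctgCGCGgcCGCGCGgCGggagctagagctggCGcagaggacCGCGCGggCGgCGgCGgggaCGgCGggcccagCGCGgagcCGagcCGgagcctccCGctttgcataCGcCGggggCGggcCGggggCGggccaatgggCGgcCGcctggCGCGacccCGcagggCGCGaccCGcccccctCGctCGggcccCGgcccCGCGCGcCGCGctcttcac

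The 2 flanks went in opposite directions. Sbno2 (mm9, chr10:79566401-79567400) had 277, 235 and 213 normalized reads in Tg197 at 3 weeks, against 189, 173 and 177 in WT. Every Tg197 library lay above every WT library, and the flank rose (log2 change 0.42 ± 0.17, limma adjusted p = 0.033). At 8 weeks it had 199.8, 179 and 199.6 in Tg197, against 145, 145 and 144 in WT, again without overlap (log2 change 0.41 ± 0.19, limma adjusted p = 0.0854). Hoxa13 (chr6:52212101-52213200) had 156, 134 and 89.6 in Tg197 at 3 weeks, against 193, 179.9 and 201 in WT, and fell (log2 change -0.63 ± 0.21, limma adjusted p = 0.0167). At 8 weeks an overlapping 1100 bp (chr6:52212401-52213500) had 92.4, 90.3 and 112 in Tg197, against 179.8, 174 and 120.5 in WT, with WT library c nearest to the Tg197 values (log2 change -0.67 ± 0.26, limma adjusted p = 0.0725). Both Hoxa13 values turned to 0.04 when libraries were scaled to the median of all listed regions, while Sbno2 at 8 weeks was 1.13 under that scaling and 0.29 under scaling to the median of regions less than 1 kb from a TSS (near-TSS regions). At 3 weeks Sbno2 was 1.09 under the first and 0.08, without passing, under the second.

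Upstream flanks mostly had fewer normalized reads in Tg197 and TNF-treated cells. With TNF, though, 110 of the 155 lower flanks (1204 of 2271 among all listed regions) had a higher deposited enrichment over input. In the authors' deposited tables, at their adjusted p of 0.05, 15 were higher and 625 lower in Tg197 at 3 weeks, where 9.71% of all listed regions were higher and 89.5% lower. The counts were 2 higher and 97 lower at 8 weeks (20.2% and 77.2% of all listed regions), 52 and 196 at 11 weeks (29.8% and 67.0%), and 9 and 152 with TNF (24.6% and 72.3%). The higher share was thus 2.34% for the youngest cells (95% exact binomial interval 1.32 to 3.84), 2.02% at 8 weeks (0.246 to 7.11), 21.0% at 11 weeks (16.1 to 26.6) and, under TNF, 5.59% (2.59 to 10.3), intervals that cover counting error only. On the downstream side of the TSS, at 1 to 3 kb, the higher share was 17.3%, 45.4%, 43.6% and 28.8% in the same order of tables, and within 250 bp of a TSS it was 90.0%, 62.9%, 76.6% and 75.5%. The mostly lower direction is that of the listed regions as a whole, and the share of higher regions was smaller among upstream flanks than among all listed regions in each of the 4 tables. It was not particular to upstream flanks. In the same order of tables, the higher share was 0.934%, 4.68%, 25.1% and 3.01% in gene bodies. Among intergenic regions it was 1.62%, 3.42%, 22.9% and 4.47%. These shares count regions of the same libraries and were not tested. In bulk cultures a lower level of the mark per cell and fewer cells that carry it cannot be told apart.

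**Figure D1:**
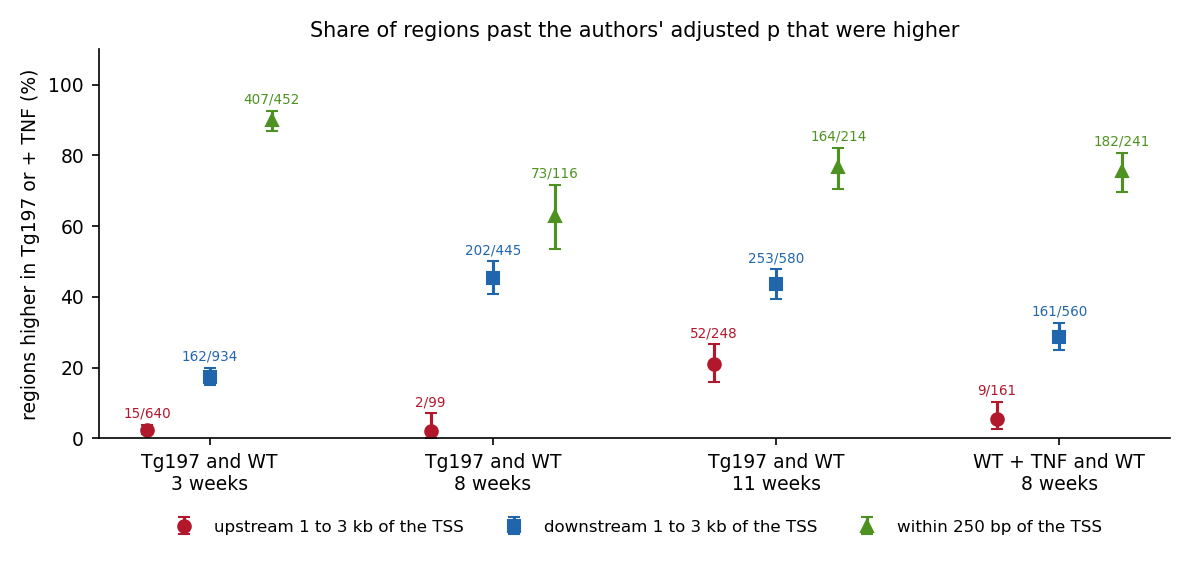
Share of regions past the authors' adjusted p that were higher in Tg197 or TNF-treated cells (percent), by comparison and distance class, with exact 95% binomial intervals as bars and counts above them. Upstream flanks lie between 2.02% and 21.0%, below downstream flanks and regions within 250 bp of a TSS in each comparison. Gene-body regions (0.934% to 25.1%) and intergenic regions (1.62% to 22.9%) are not drawn.

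Limma on the log2 of the libraries' normalized counts gave the same direction at 3 and 11 weeks and fewer calls at 8 weeks and with TNF. At 3 weeks 9 upstream flanks rose and 623 fell (4.68% and 88.9% of all listed regions). At 11 weeks 54 rose and 201 fell (29.6% and 67.7%), and with TNF 4 rose and 88 fell (16.5% and 42.6%). At 8 weeks 0 rose and 0 fell (0.0% of all listed regions), with 75 flanks at an unadjusted p under 0.05 and 0 called by voom on recovered reads. Of the 643, 102, 256 and 164 flanks, 632, 0, 255 and 92 were called in either direction, as were 93.6%, 0.0%, 97.3% and 59.1% of all listed regions. Median log2 changes were -0.66, -0.88 and -0.60 by age and -0.76 with TNF, against -0.70, -0.86, -0.60 and -0.58 over all listed regions. The 3 libraries of each group did not overlap at 10 higher and 614 lower flanks at 3 weeks (6.29% and 86.4% of all listed regions), 2 and 63 at 8 weeks (16.9% and 46.3%), 50 and 197 at 11 weeks (28.8% and 67.1%), and 6 and 96 with TNF (22.4% and 51.8%).

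These directions depend on how libraries are scaled. Once libraries were scaled by the median of all listed regions, the median change of upstream flanks was 0.01, -0.16 and -0.26 by age and -0.25 with TNF, and that of all listed regions -0.04, -0.15, -0.26 and -0.07. Limma then called 12 flanks that rose and 1 that fell at 3 weeks, 2 and 0 at 8 weeks, 54 and 15 at 11 weeks, and 9 and 8 with TNF. With scaling by near-TSS regions, those within 1 kb, it called 0 and 628, 0 and 80, 44 and 202, and 2 and 130, with medians of -0.99, -1.0, -0.75 and -0.86. A scaling moves all regions of a table alike, so the gap between classes is fixed by construction. Medians of regions within 250 bp of a TSS were 1.06, 1.12, 0.68 and 0.94 under the first and 0.06, 0.28, 0.19 and 0.33 under the second.

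Whether flanks passed the test depended on single libraries at 3 and 8 weeks and with TNF. WT library c of 8 weeks had a median of 103 normalized reads over the flanks of the Tg197 table, against 184 and 169 in WT libraries a and b, and Tg197 libraries had 68.7, 87.6 and 94.6. At 84 of the 100 flanks with a lower mean it lay nearer to the Tg197 libraries than to the other WT libraries, and in the TNF table, which uses the same WT cells, at 133 of 155. Without it limma called 98 flanks at 8 weeks, all lower, and 152 with TNF, of which 146 fell, and the median changes were -1.23 at 8 weeks and -0.95 with TNF, against -0.88 and -0.76 with all libraries. The 3 week calls dropped to 0 without WT library c, 414 without a and 401 without b, with median changes of -0.63, -0.69 and -0.68 against -0.66 with all libraries. The TNF calls dropped to 0 without TNF library b or c or WT library a or b, with median changes between -0.75 and -0.61 against -0.76. At 11 weeks between 247 and 251 were called whichever library was left out. Depth moved with these levels. In each of the 7 groups the most deeply sequenced library had the lowest median deviation over the flanks, such as TNF library b, with 2.753 reads per normalized read against 0.553 and 1.817 in the other TNF libraries, and WT library c of 8 weeks, with 1.394 against 0.684 and 0.637 in the Tg197 table. The part of depth in the results was not tested.

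**Figure D2:**
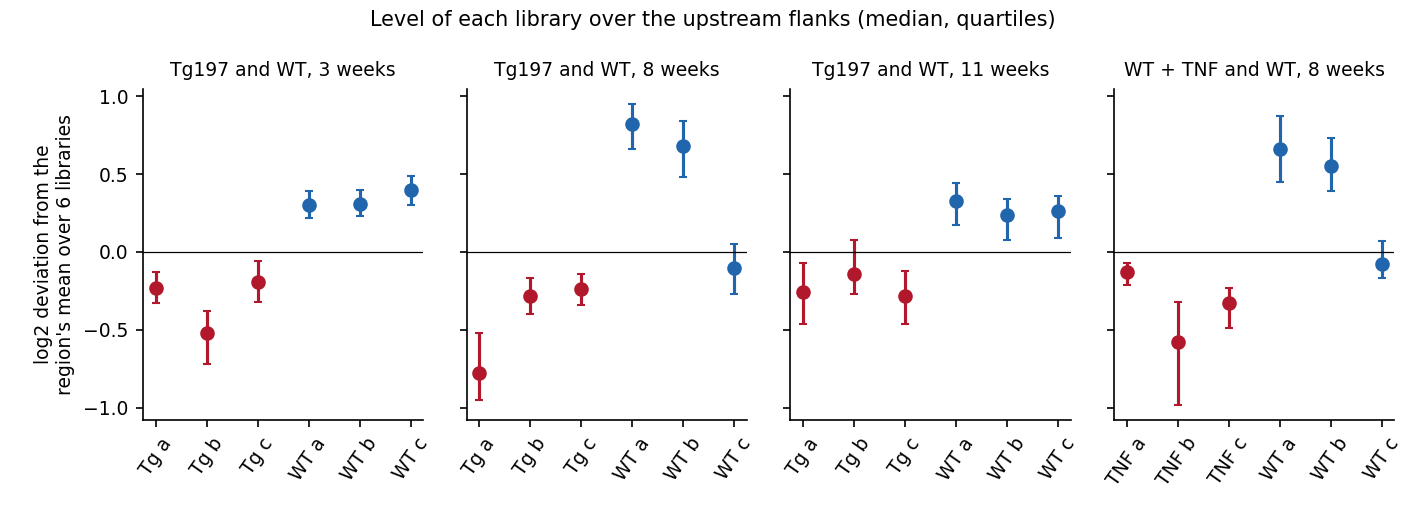
Level of each library over the upstream flanks, as the log2 deviation from a region's mean over the 6 libraries of its table (points: median over flanks; bars: quartiles), with Tg197 or TNF-treated libraries in red and WT in blue. At 8 weeks and in the TNF table WT library c lies near the red points, and at 11 weeks the groups are separate.

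Distance from the TSS made little difference to the change among flanks at 3 and 11 weeks. At 3 weeks the median log2 change was -0.67, -0.69, -0.66 and -0.64 in successive 500 bp steps toward the TSS, over 154, 129, 161 and 199 flanks. It was -0.60 between 1000 and 500 bp and 0.38 in the last 500 bp before the TSS. At 11 weeks the steps of the flanks had medians of -0.63, -0.63, -0.59 and -0.59. At 8 weeks they were -1.03, -0.97, -0.85 and -0.81, and with TNF -1.14, -0.84, -0.89 and -0.58, with 12 and 14 flanks in the outermost step. Under the authors' scaling, medians turned from lower to higher in the last 500 bp before the TSS at 3 and 11 weeks. At 8 weeks and with TNF they turned at the TSS itself. Downstream of the TSS median changes stayed positive to 1000 bp at 3 weeks and with TNF and to 1500 bp at 8 and 11 weeks. The signs of these medians move with library scaling. Steps near the turn mixed both directions: at 11 weeks the last 500 bp before the TSS held 119 higher and 62 lower regions by the authors' adjusted p. On either side of the 1 kb limit, Nlgn2 at -1000.5 bp, just inside, had a log2 change of -0.56 ± 0.17 at 3 weeks, and Gpha2 at -999.5 bp, just outside, -0.80 ± 0.31. At 11 weeks Chic2 at -1000.5 bp had -0.56 ± 0.13 and Mgat3 at -999.5 bp -0.62 ± 0.19. At 8 weeks Epha2 at -1003.5 bp had -0.80 ± 0.37 and Fasn at -990.5 bp -0.67 ± 0.22, and with TNF Iffo2 at -999.5 bp, just outside, had -0.59 ± 0.18. Nearest to the outer limit were Gm13242 at -2998.5 bp (-0.64 ± 0.20, 3 weeks), Speer4e at -2976.5 bp (-1.05 ± 0.66, 8 weeks), Hexim1 at -2987.5 bp (0.51 ± 0.23, 11 weeks) and Ly6g5c at -2993.5 bp (-1.21 ± 0.35, TNF).

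**Figure D3:**
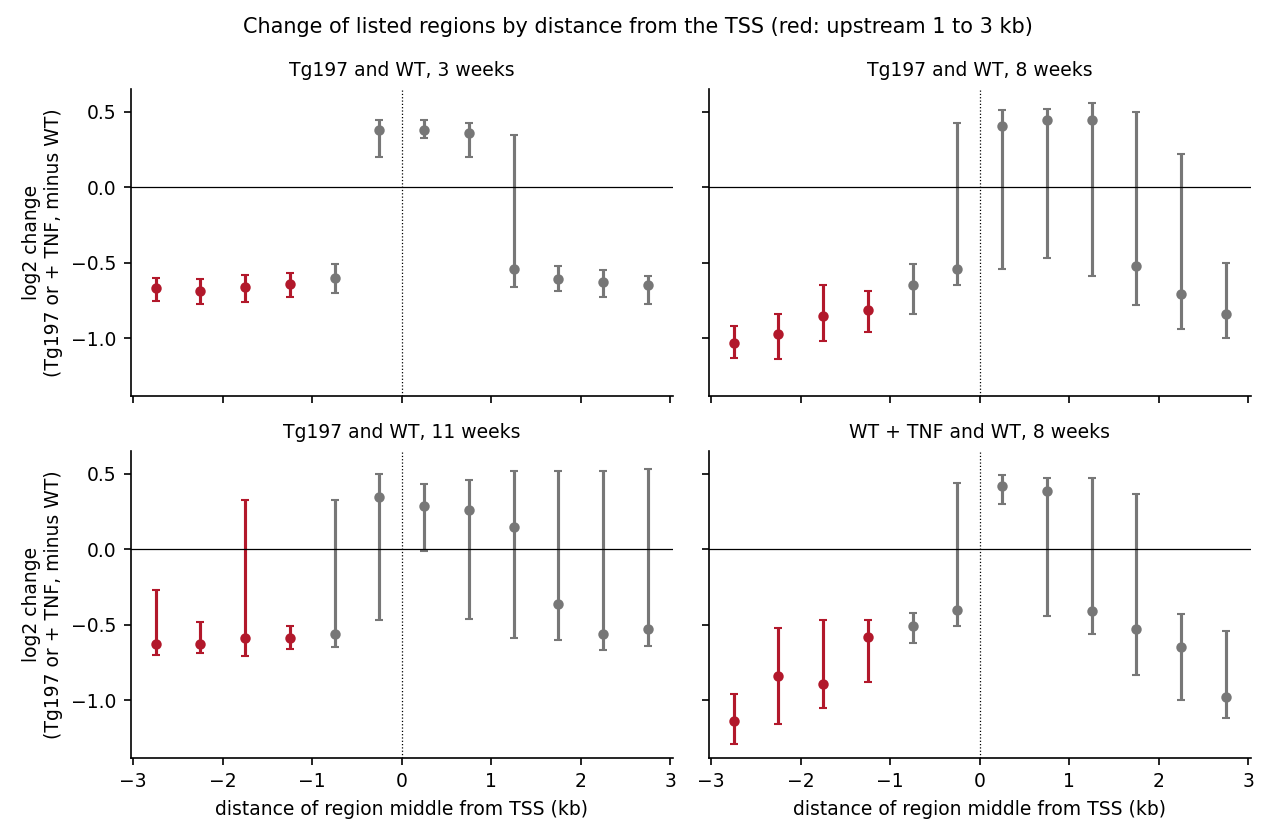
Limma log2 change of listed regions (Tg197 or TNF-treated minus WT, authors' scaling) by the distance of the region's middle from the TSS, in 500 bp steps (points: median; bars: quartiles), with upstream flanks in red. Red medians lie between -0.58 and -1.14. Under scaling to all listed regions the 3 week flanks have a median of 0.01.

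At 3 weeks 9 of 643 upstream flanks rose, where 4.68% of all listed regions rose. They included that of Birc2, while those of Rela, Tnfaip2 and Traf2, from the same list of NF-kB targets and regulators, fell. Birc2 encodes cIAP1, the ubiquitin ligase that works below the TNF receptor. Its flank (chr9:7836401-7837400) had 247, 319 and 296 normalized reads in Tg197 libraries, against 199.5, 202 and 217 in WT. The groups did not overlap, and the flank rose by 0.47 ± 0.17 on the log2 scale (limma adjusted p = 0.0205). Bcl6, a transcriptional repressor of lymphocyte genes (chr16:23990101-23991100), had 139.9, 210.5 and 236 in Tg197, against 135, 115 and 113 in WT, and rose the most of the flanks with separate groups (log2 change 0.66 ± 0.21, limma adjusted p = 0.0158). Tg197 library a was close to the highest WT library there. Meis2, a homeobox partner of Hox proteins (chr2:115892401-115893400), had 144, 174 and 183 in Tg197, against 119, 93.9 and 117 in WT (log2 change 0.60 ± 0.18, limma adjusted p = 0.0148), without overlap. Mir684-1, a microRNA gene, the zinc finger gene Zfp740, Herc3 of the HERC ubiquitin ligase family and Ube2j2, a ubiquitin-conjugating enzyme, rose by 0.60, 0.59, 0.53 and 0.47. Under scaling by near-TSS regions none of these 7 passed, with changes between 0.14 and 0.32.

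The flanks that fell the most at 3 weeks had 27.3 to 82.8 normalized reads in Tg197 libraries. Hsh2d encodes a haematopoietic SH2-domain adaptor. Its flank (chr8:74711901-74713000) had 58.0, 42.9 and 55.7 in Tg197, against 133, 113 and 165 in WT. No Tg197 library reached the lowest WT library, and Hsh2d fell under the authors' scaling and both other scalings (log2 change -1.38 ± 0.26, limma adjusted p = 0.0143). Apoa1, the main apolipoprotein of HDL (chr9:46034001-46035000), had 46.1, 33.0 and 67.9 in Tg197, against 125, 105 and 122 in WT. Apoc4, another apolipoprotein gene (chr7:20267401-20268400), had 51.7, 36.5 and 78.8 in Tg197, against 107, 112 and 165 in WT. Sacm1l, a phosphoinositide phosphatase of the endoplasmic reticulum (chr9:123436001-123437000), had 59.6, 74.2 and 35.3 in Tg197, against 131, 126 and 118 in WT. In Apoa1 and Apoc4 Tg197 library c was the highest of its group, and in Sacm1l it was the lowest. Sult6b1, a sulfotransferase, Zyg11a, of a family of ubiquitin ligase adaptors, and 2210016F16Rik fell with log2 changes of -1.26, -1.12 and -1.14. Of these 7 only Hsh2d passed with scaling to all listed regions.

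Among the gene lists at 3 weeks, 4 of 31 NF-kB targets and regulators had an upstream flank, and 1 rose (Birc2) and 3 fell, where 4.68% of all listed regions rose and 88.9% fell. Rela encodes the p65 subunit of NF-kB, and its flank (chr19:5635501-5637000) had 165, 150.2 and 174 in Tg197, against 235, 234 and 272 in WT. The groups were well apart, but the change of -0.60 ± 0.17 (limma adjusted p = 0.0143) turned to 0.07 under scaling to all listed regions. Tnfaip2, a TNF-induced gene, had -0.61, and 0.05 under that scaling. Traf2, an adaptor of TNF receptors (chr2:25404301-25405300), had 68.3, 57.4 and 61.1 in Tg197, against 117, 104 and 134 in WT, a change of -0.92 ± 0.24 (limma adjusted p = 0.0143) that was -0.25 under that scaling. In the matrix list 5 of 27 genes had a flank and all 5 fell, where 88.9% of all listed regions fell, with a median log2 change of -0.59 against -0.70 over all listed regions. Fn1, which encodes fibronectin (chr1:71701701-71702800), had 71.5, 67.2 and 103 in Tg197, against 122, 135 and 127 in WT (log2 change -0.69 ± 0.21, limma adjusted p = 0.0151). Col6a2, a chain of collagen VI (chr10:76088401-76089600), had 87.4, 77.7 and 92.3 in Tg197, against 153, 134 and 132 in WT (log2 change -0.70 ± 0.18, limma adjusted p = 0.0143). Under scaling to all listed regions these were -0.02 and -0.03, and Col1a1, Fbn1 and the collagen-crosslinking enzyme gene Lox turned to 0.17, 0.09 and 0.08.

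Adam10, a sheddase (chr9:70525001-70526000), had 89.8, 64.4 and 50.2 in Tg197, against 114, 114 and 118 in WT, without overlap (log2 change -0.80 ± 0.26, limma adjusted p = 0.016). Lif, a cytokine of the interleukin-6 family (chr11:4154601-4155900), had 126, 46.4 and 121 in Tg197, against 175, 154 and 176 in WT (log2 change -0.91 ± 0.31, limma adjusted p = 0.0177). Tg197 library b, the deepest, was far below its other libraries there. Cell cycle genes Pcna, Aurkb and Ccnd1 fell with log2 changes of -0.82, -0.53 and -0.48, the patterning genes Tbx18 and Hoxa13 with -0.68 and -0.63, and the cytoskeletal genes Cdc42 and Myl9 with -0.61 and -0.49. H2-DMa of antigen presentation (-0.66), the muscle creatine kinase Ckm (-0.68) and the osteoblast factor Sp7 (-0.74) fell as well. Aurkb, Ccnd1, Hoxa13, Cdc42, Myl9 and H2-DMa turned to between 0.01 and 0.19 under scaling to all listed regions, where the others lay between -0.24 and -0.01. No 3 week call on a named gene remained without WT library c, although the median change of the flanks was then -0.63.

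**Figure D4:**
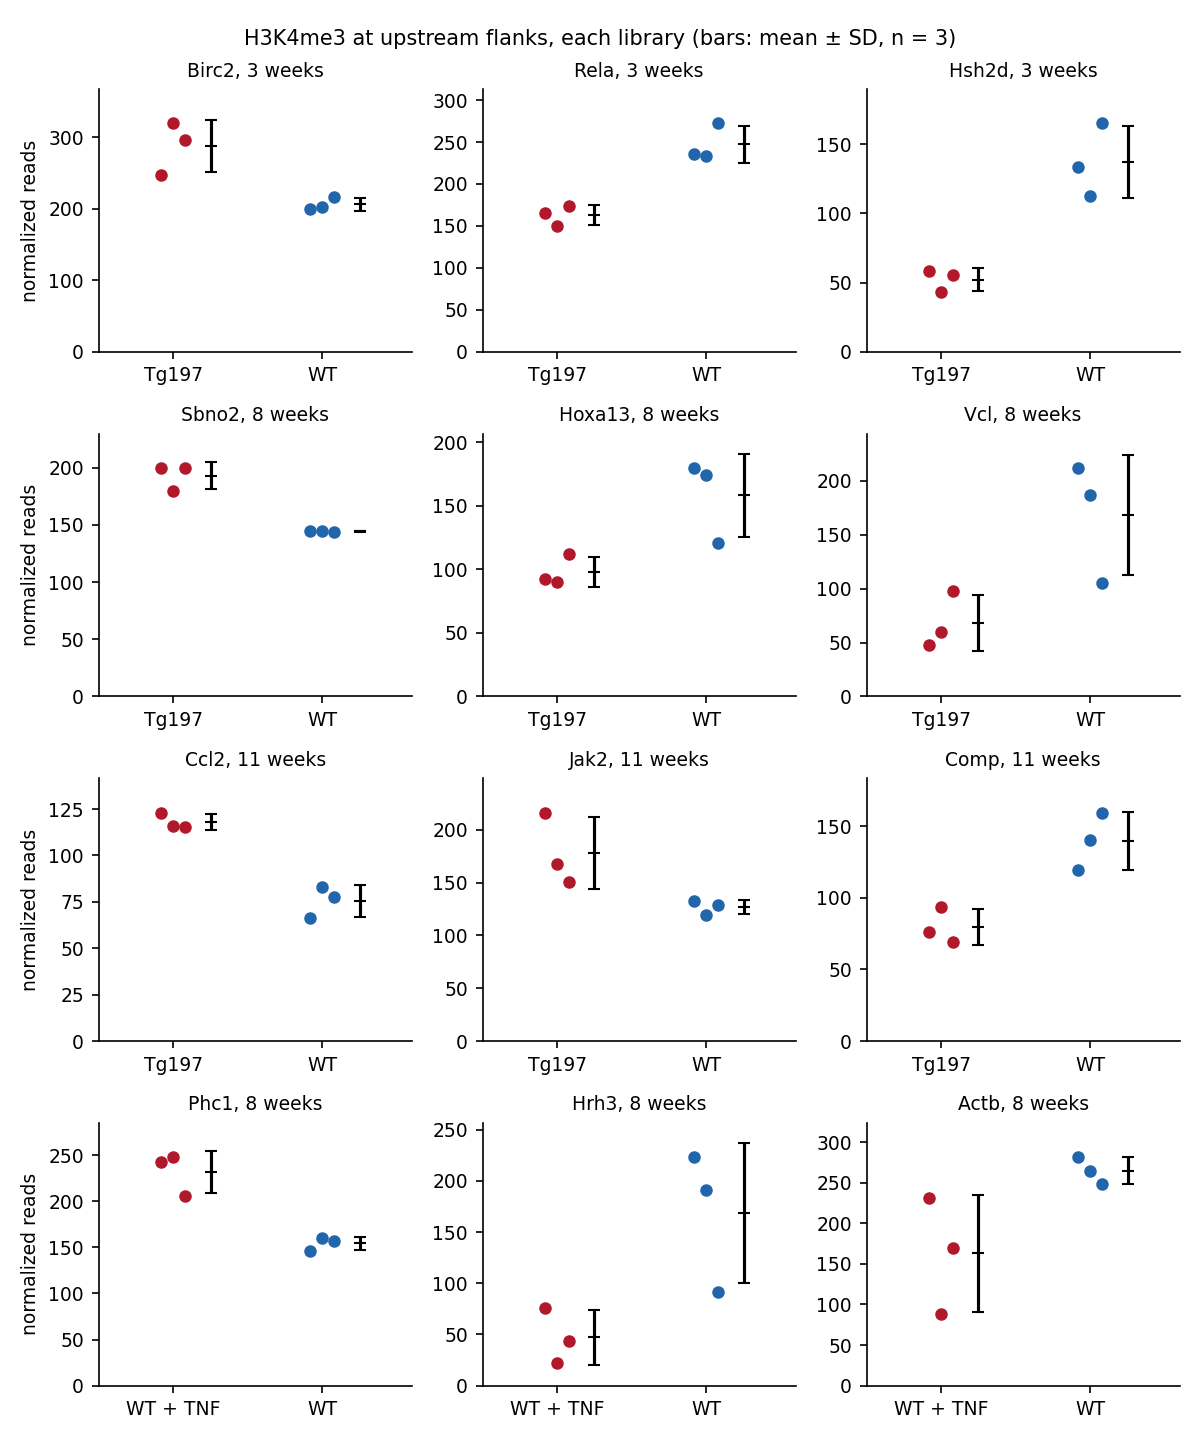
Normalized reads of 12 upstream flanks in each library (red: Tg197 or TNF-treated; blue: WT; bars: mean ± SD, n = 3), from 3 weeks in the top row to TNF treatment at 8 weeks in the bottom row. Birc2, Sbno2, Ccl2, Jak2 and Phc1 lie higher in the red group and the rest lower; Rela at 3 weeks and Hoxa13 at 8 weeks turn to 0.07 and 0.04 (log2) under scaling to all listed regions.

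At 8 weeks the 2 flanks with higher values past the authors' threshold were those of Sbno2 and Arid4a. Arid4a, a chromatin protein that binds the retinoblastoma protein (chr12:72115001-72116200), had 294, 289 and 277 normalized reads in Tg197, against 222, 228 and 176 in WT. The groups did not overlap (log2 change 0.47 ± 0.20, limma adjusted p = 0.0747). Among lower flanks Ppp2r5c, a regulatory subunit of protein phosphatase 2A (chr12:111682101-111683100), had 29.9, 67.4 and 69.7 in Tg197, against 155, 171 and 94.7 in WT (log2 change -1.38 ± 0.45, limma adjusted p = 0.0725). Exoc2, of the exocyst (chr13:31068101-31069100), had 29.9, 58.0 and 59.4 in Tg197, against 161, 149 and 71.7 in WT. Both had their lowest value in Tg197 library a, the deepest of its group, and their lowest WT value in library c. Vcl encodes vinculin, which links adhesions to actin; its flank (chr14:21745601-21747000) had 47.6, 59.3 and 97.4 in Tg197, against 212, 187 and 105 in WT (log2 change -1.30 ± 0.39, limma adjusted p = 0.0725). Cd79b, a chain of the B cell receptor, Plekhg5, Chrne, a subunit of the muscle acetylcholine receptor, and Abca2, a lipid transporter, had changes between -1.34 and -1.30. None of the 8 week values passed limma. From the lists, the cell cycle kinase gene Cdk4 had 68.9, 85.0 and 106 in Tg197, against 197, 174 and 109 in WT (log2 change -0.86 ± 0.31), and the muscle marker Ckm had 40.6, 62.0 and 75.2 in Tg197, against 151, 159 and 75.3 in WT (log2 change -1.08 ± 0.43). In Ckm WT library c, at 75.3, lay just above the highest Tg197 library.

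At 11 weeks 54 of 256 flanks rose, where 29.6% of all listed regions rose, and those of Ccl2, Jak2, Mapkapk2 and Mavs were among them. From the lists, 1 of 27 chemokine and cytokine genes (Ccl2) and 1 of 27 interferon response genes (Jak2) had a flank at this age. Of the 31 NF-kB targets and regulators 0 had one. Ccl2 encodes the chemokine MCP-1. Its flank (chr11:81846701-81847800) had 123, 116 and 116 normalized reads in Tg197, against 66.2, 82.8 and 77.5 in WT. The Tg197 libraries lay close together and above every WT library (log2 change 0.65 ± 0.16, limma adjusted p = 0.0045). Jak2, the kinase that signals for interferon-gamma and interleukin-6 receptors (chr19:29324501-29325500), had 216, 168 and 151 in Tg197, against 132, 119 and 129 in WT (log2 change 0.47 ± 0.15, limma adjusted p = 0.00789), and was 0.33 without passing under scaling by near-TSS regions. Mapkapk2, the kinase MK2 that stabilises Tnf mRNA below p38 (chr1:132995201-132996300), had 155, 123 and 98.0 in Tg197, against 61.8, 69.8 and 76.4 in WT (log2 change 0.83 ± 0.19, limma adjusted p = 0.00438). Mavs, the mitochondrial adaptor of antiviral RNA sensing (chr2:131057901-131058900), had 164, 103 and 96.3 in Tg197, against 81.7, 61.9 and 66.3 in WT (log2 change 0.76 ± 0.22, limma adjusted p = 0.0057). In both genes Tg197 library a was the highest, and no WT library reached the Tg197 range. Zfp12, a zinc finger gene (chr5:143995001-143996100), had 122, 132 and 127 in Tg197, against 76.2, 60.2 and 78.6 in WT (log2 change 0.83 ± 0.17, limma adjusted p = 0.00434), and Sp5, a Wnt-responsive transcription factor (chr2:70311401-70312500), had 137, 118 and 118 in Tg197, against 68.4, 82.0 and 62.9 in WT (log2 change 0.81 ± 0.17, limma adjusted p = 0.00434). Rin2, a Rab5 exchange factor, AW555464 and the angiopoietin-like gene Angptl6 rose by 0.82, 0.79 and 0.75. All 7 with the largest rise kept passing under both other scalings.

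Among the matrix genes at 11 weeks, the flanks of Sparc, Col6a2 and Fn1 fell and that of Col6a1 rose, and those of Comp and Adipoq from the cartilage, bone and fat markers fell. Comp encodes a cartilage matrix protein (chr8:72894401-72895400), and it had 76.0, 93.2 and 69.5 in Tg197, against 119, 140.4 and 159.5 in WT, without overlap (log2 change -0.81 ± 0.17, limma adjusted p = 0.00434). Sparc, a collagen-binding protein of bone and stroma (chr11:55235101-55236100), had 49.3, 114 and 68.7 in Tg197, against 136, 133 and 119 in WT (log2 change -0.82 ± 0.25, limma adjusted p = 0.00704). Col6a2 (chr10:76087301-76088400) had 80.3, 96.3 and 67.8 in Tg197, against 135, 134 and 124 in WT (log2 change -0.69 ± 0.17, limma adjusted p = 0.00441), whereas its neighbour gene Col6a1 (chr10:76191101-76192100) had 119.9, 194 and 181 in Tg197, against 113, 93.3 and 120.2 in WT, and rose although Tg197 library a lay just below the highest WT library (log2 change 0.58 ± 0.18, limma adjusted p = 0.0089). Fn1 fell with overlapping groups, with 110.3, 118.8 and 106.3 normalized reads in Tg197, against 214.1, 105.5 and 187.6 in WT (log2 change -0.53 ± 0.21, limma adjusted p = 0.0283). In all, 4 of 27 matrix genes had a flank, 1 rose and 3 fell, where 29.6% of all listed regions rose and 67.7% fell, and their median was -0.61 against -0.60 over all listed regions, so the list stood near the background. Adipoq, the adipocyte hormone adiponectin (chr16:23144401-23145400), had 60.0, 64.5 and 40.2 in Tg197, against 115, 97.7 and 100.0 in WT (log2 change -0.94 ± 0.22, limma adjusted p = 0.00436). Plau, the urokinase gene, fell with a log2 change of -0.58 and Myh9, non-muscle myosin, with -0.63. Fn1, Col6a2, Sparc, Plau and Myh9 no longer passed under scaling to all listed regions, with values between -0.48 and -0.19, whereas Comp and Adipoq did at -0.47 and -0.60.

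The flank with the largest fall at 11 weeks was that of Slain2, a microtubule protein (chr5:73302301-73304100), with 125, 109 and 75.3 in Tg197, against 223, 165 and 215 in WT (log2 change -0.98 ± 0.19, limma adjusted p = 0.00434). Ppfia1, a liprin of focal adhesions (chr7:151740301-151741300), had 39.6, 72.7 and 62.8 in Tg197, against 108, 98.5 and 122 in WT, and its flank had fallen at 3 weeks as well (-0.94 at 11 and -0.77 at 3 weeks on the log2 scale). The 3 week value was -0.10 without passing under scaling to all listed regions. Prkg1, a cGMP-dependent kinase, Phf21b, a PHD finger gene, 1190005I06Rik and Gm13547 fell with log2 changes between -0.93 and -0.90, and the values of these 4 in Tg197 libraries ran from 40.2 to 94.3.

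With TNF treatment 4 of 164 upstream flanks rose, where 16.5% of all listed regions rose. They were those of Sdccag8, Phc1, Slc29a1 and Mat2b. No flank was called in either direction without TNF library b or c or WT library a or b. Phc1, a Polycomb protein (chr6:122288801-122290000), had 242, 248 and 206 normalized reads in TNF-treated libraries, against 146, 160.0 and 157 in untreated WT. The groups were clearly apart (log2 change 0.58 ± 0.16, limma adjusted p = 0.046). Sdccag8, a centrosome protein (chr1:178742101-178743900), had 506, 551 and 477 in TNF-treated cells, against 189, 386 and 355 in untreated cells, where WT library a was far below the others (log2 change 0.79 ± 0.25, limma adjusted p = 0.046). Slc29a1, an equilibrative nucleoside transporter (chr17:45731701-45732700), had 195, 272 and 274 in TNF-treated cells, against 169.9, 156 and 189 in untreated cells (log2 change 0.51 ± 0.18, limma adjusted p = 0.0463). Mat2b, a regulatory subunit of the enzyme that makes S-adenosylmethionine, the methyl donor of histone methylation, had 268, 304 and 288 in TNF-treated cells, against 204, 224 and 225 in untreated cells (log2 change 0.39 ± 0.13, limma adjusted p = 0.046). Slc29a1 and Mat2b did not pass under scaling by near-TSS regions (0.41 and 0.29). Ikzf2, the lymphoid factor Helios, and 2610203C20Rik were higher by the authors' test, with 0.44 and 0.52 that did not pass limma.

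Lower flanks with TNF, by normalized reads, were led by Hrh3, a histamine receptor (chr2:179840901-179842000), with 76.0, 22.2 and 43.5 in TNF-treated cells, against 223, 191 and 91.7 in untreated cells (log2 change -1.90 ± 0.63, limma adjusted p = 0.046). TNF library b, the deepest, was the lowest and WT library c the lowest of its group. Actb and Myl9 of the cytoskeleton list fell. Actb, beta-actin (chr5:143669301-143670700), had 232, 87.9 and 169 in TNF-treated cells, against 281, 265 and 248 in untreated cells (log2 change -0.81 ± 0.31, limma adjusted p = 0.0496), and Myl9, a myosin light chain (chr2:156599601-156600600), had 121, 70.8 and 90.8 in TNF-treated cells, against 185, 164 and 161 in untreated cells (log2 change -0.88 ± 0.28, limma adjusted p = 0.046). Neither passed under scaling to all listed regions (-0.30 and -0.37). Loxl1, which crosslinks elastin (chr9:58163001-58164000), had 90.4, 44.0 and 56.1 in TNF-treated cells, against 194, 164 and 90.9 in untreated cells (log2 change -1.22 ± 0.47, limma adjusted p = 0.0501). Hoxd13 had overlapping groups and a change of -0.44 that turned to 0.07 under scaling to all listed regions. Scube3, a secreted growth factor modulator, Gh, growth hormone, Dnm1, a dynamin of neurons, and Pygm, muscle glycogen phosphorylase, fell with log2 changes of -1.44, -1.37, -1.36 and -1.35, and Kif1a, an axonal kinesin, and Hpdl had -1.41 and -1.38 without passing. Tnf itself had no upstream flank in any table, and none of the NF-kB, chemokine and interferon lists had one in the TNF table.

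The deposited ratios over input did not always move with the normalized reads. With TNF the median enrichment over the flanks was 3.64 in TNF-treated and 2.88 in untreated cells, and 110 of the 155 flanks with a lower mean count in TNF-treated cells had the higher enrichment there. This was not particular to upstream flanks. Of all listed regions with a lower mean count, 1204 of 2271 had the higher enrichment with TNF. The split held for 419 of 444 regions between 250 bp and 1 kb of a TSS, 316 of 405 downstream flanks and 178 of 752 gene-body regions. The same split held for 37 of 628 flanks at 3 weeks, 12 of 100 at 8 weeks and 0 of 202 at 11 weeks. Over all listed regions it held for 417 of 12246, 249 of 2298 and 9 of 4526 lower regions at these ages. Median enrichments were 2.35 in Tg197 and 2.61 in WT at 3 weeks, 1.99 and 2.52 at 8 weeks, and 2.09 and 2.62 at 11 weeks. With TNF the direction of the lower flanks thus differs between the authors' 2 measures for most of them, and at 11 weeks for none.

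The ratio of a flank to the promoter region of the same TSS does not depend on library scaling. Where a table listed both an upstream flank and a region within 1 kb of the same TSS, the log2 ratio of flank to promoter region was taken in each library. Both regions of a pair were listed for differing between these same libraries. For a lower flank with a higher promoter region, a fall of the ratio thus follows from the listing. Its direction and p are no independent evidence. At 3 weeks there were 55 such pairs, and in 37 the flank was lower and the promoter region higher in Tg197 under the authors' scaling. These directions, unlike the ratio, move with library scaling, and some of these promoter regions, such as that of Sos1, did not pass limma. The ratio fell in 31 and rose in 0 (of all 768 regions paired with a promoter region at 3 weeks, 57.3% fell and 0.651% rose). At 11 weeks it fell in 9 and rose in 0 of 17 pairs (37.1% and 7.14% of 294), at 8 weeks 0 of 8 pairs were called (0.0% of 98, with 1 of the 8 at an unadjusted p under 0.05), and with TNF it fell in 2 and rose in 1 of 16 pairs (12.6% and 3.50% of 143). Median differences were -0.95, -0.17, -0.58 and -0.56, against -0.96, -0.34, -0.25 and -0.63 over all paired regions. At 3 weeks 0 pairs were called without WT library c, 4 without WT library b, 11 without WT library a and 14 without Tg197 library a, whereas at 11 weeks 8 or 9 were called whichever library was left out. With TNF 0 were called without TNF library b or c, 8 without TNF library a and 7 without WT library c.

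Odf3b at 11 weeks, named for a sperm tail protein, had the smallest p. Its log2 flank-to-promoter ratio was -0.43, -0.26 and -0.34 in Tg197 libraries, against 0.82, 0.75 and 0.92 in WT (difference -1.17 ± 0.16, limma adjusted p = 0.000566). The flank had 80.3, 87.1 and 82.0 normalized reads in Tg197, against 139, 103 and 128 in WT, and the promoter region went the other way, with 108, 104 and 104 in Tg197, against 78.4, 61.0 and 67.4 in WT. Tmed4, of a family of cargo receptors of the secretory pathway, had ratios of -1.93, -0.73 and -1.59 in Tg197, against -0.21, -0.15 and 0.08 in WT (-1.32 ± 0.26, limma adjusted p = 0.00144). Myh9 had -1.69, -0.75 and -0.68 in Tg197, against -0.02, -0.11 and 0.16 in WT (-1.05 ± 0.25, limma adjusted p = 0.00327). In each the groups of ratios were apart. Arhgap9 had the largest difference (-1.39 ± 0.28, limma adjusted p = 0.0015). Ccl2 was of the other kind: its flank and its promoter region both rose, by 0.65 and 0.78, and the ratio was -1.75, -1.59 and -1.66 in Tg197, against -1.71, -1.26 and -1.64 in WT (-0.13 ± 0.19, limma adjusted p = 0.622). Hexim1, an inhibitor of the elongation factor P-TEFb, also had both higher (0.51 and 0.41).

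At 3 weeks the pair of Fance, a Fanconi anaemia gene, had the largest difference, with ratios of -1.39, -2.66 and -1.68 in Tg197, against -0.76, -0.52 and 0.17 in WT (-1.54 ± 0.37, limma adjusted p = 0.0128). Atg16l1, an autophagy gene (-1.47 ± 0.37, limma adjusted p = 0.0131), B4galt1, a galactosyltransferase (-1.44 ± 0.36, limma adjusted p = 0.0131), Ogdh, a dehydrogenase of the citric acid cycle (-1.36 ± 0.38, limma adjusted p = 0.0167), and Sos1, an activator of Ras (-1.33 ± 0.47, limma adjusted p = 0.0315), were among the other pairs whose ratio fell. Sphk1, which makes sphingosine-1-phosphate and acts in TNF signalling, had ratios of -0.75, -1.13 and -0.39 in Tg197, against 0.18, 0.05 and 0.33 in WT (-0.94 ± 0.23, limma adjusted p = 0.0128). Spacings between annotated Sphk1 starts fit its flank, though the starts were not tied to the deposited TSS. With TNF Rfc4, a subunit of the clamp loader of replication, had -0.41, -0.88 and -0.38 in TNF-treated, against 1.23, 0.85 and 0.26 in untreated cells (-1.34 ± 0.25, limma adjusted p = 0.0181), and Ell, an elongation factor, had -1.45 ± 0.33 (limma adjusted p = 0.0216). Slc29a1 was the pair whose ratio rose, with -0.24, 0.44 and 0.27 in TNF-treated, against -1.11, -1.05 and -0.22 in untreated cells (0.95 ± 0.29, limma adjusted p = 0.04). Its groups overlapped, and no pair passed the test as a rise without TNF library b or c or WT library a or b. Spacings between annotated Slc29a1 starts fit its flank, though the starts were not tied to the deposited TSS. These pairs were chosen for display after their values were seen. Rn4.5s and Speer4d, which also had pairs, belong to families of near-identical copies, so their values are uncertain.

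**Figure D5:**
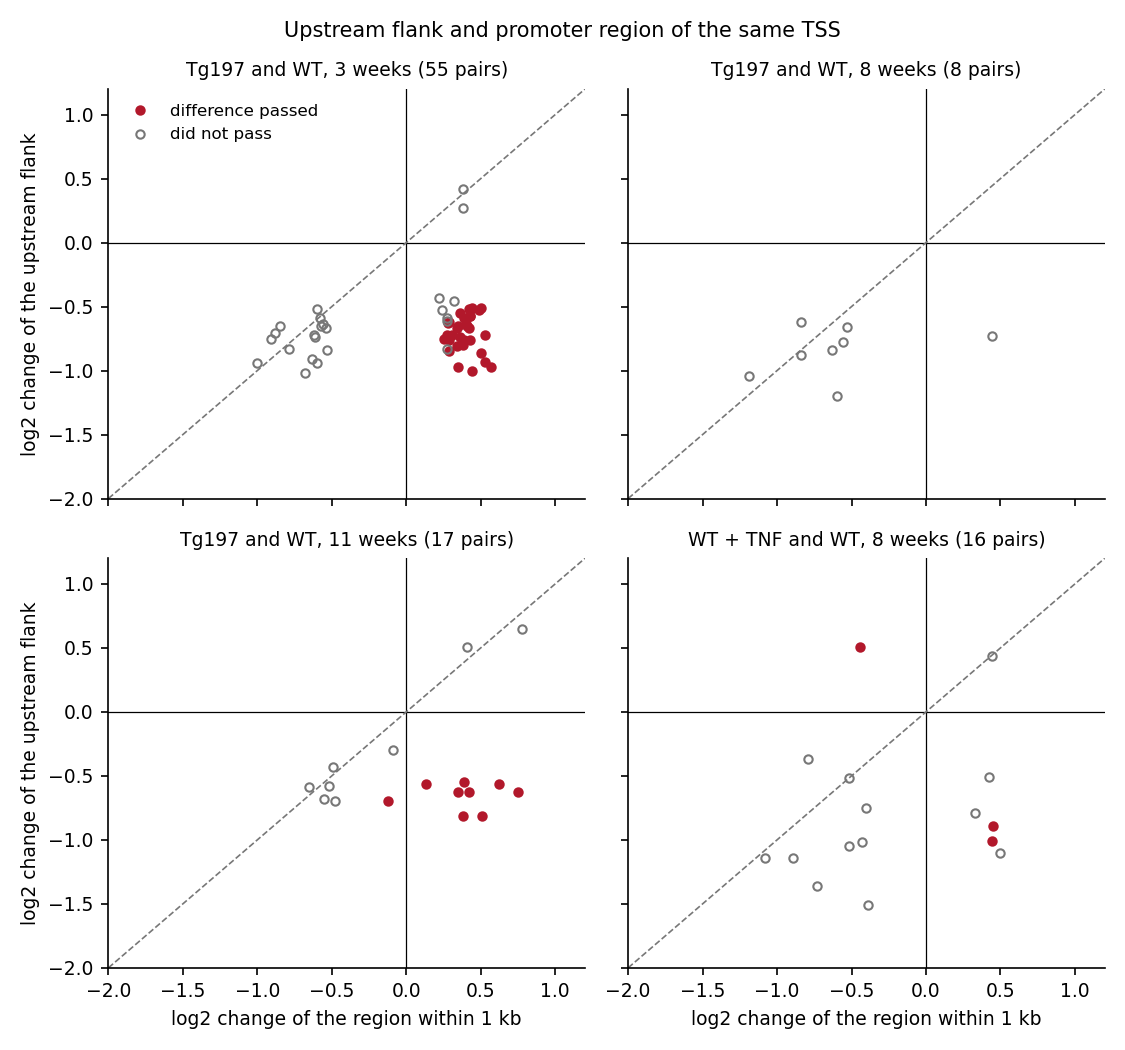
Log2 change of the upstream flank (vertical axis) against that of the region within 1 kb of the same TSS (horizontal axis), 1 point per pair, with filled red points where the difference passed limma and a dashed line of equal change. At 3 weeks 31 of 55 and at 11 weeks 9 of 17 pairs are filled, and the horizontal and vertical positions, unlike the distance from the dashed line, move with library scaling.

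Where both were listed, upstream and downstream flanks of the same TSS were mostly both lower at 3 and 8 weeks and with TNF. Under the authors' scaling both were lower in 7 of 9 pairs at 8 weeks, 9 of 18 at 11 weeks and 11 of 14 with TNF. The upstream flank alone was lower in 1, 4 and 3 of these pairs. The downstream one alone was lower in 1 pair at 8 weeks and 2 at 11 weeks, where both were higher in 3. This comparison was added after the data were seen, and its fits hold only such pairs. Both flanks of a pair were listed for differing between these libraries, so the p-values here are no independent evidence either. By the authors' adjusted p, 89.5%, 77.2% and 67.0% of all listed regions were lower by age and 72.3% with TNF. Pairs with both flanks lower thus follow in part from the listing. The directions of single flanks also move with library scaling. At 3 weeks both flanks were lower in 46 of 51 pairs and the upstream one alone in 5; the upstream-to-downstream ratio fell in 3 and rose in 0 (5.88% and 0.0% of pairs), with a median difference of -0.05. The 3 were Spns1, a lysosomal transporter (-1.10 ± 0.21, limma adjusted p = 0.00927), Ccnd1 (-1.04 ± 0.26, limma adjusted p = 0.0276) and Bat2l (-0.92 ± 0.20, limma adjusted p = 0.0189). Ccnd1, which encodes cyclin D1, had ratios of -2.54, -2.49 and -2.17 in Tg197, against -1.09, -1.60 and -1.38 in WT. At 8 weeks 1 of 9 pairs fell (G3bp1, -0.95 ± 0.31, limma adjusted p = 0.0179) and 1 rose (Sbno2, 0.94 ± 0.28, limma adjusted p = 0.0176; 11.1% each). Sbno2 had ratios of 0.99, -0.22 and 0.02 in Tg197, against -0.64, -0.68 and -0.70 in WT, so the ratio was higher in every Tg197 library. At 11 weeks 4 of 18 fell and 2 rose (22.2% and 11.1%). Tmem173, the adaptor STING of DNA sensing, fell (-1.22 ± 0.26, limma adjusted p = 0.000303), as did Mgat5b, Pcdh19 and Pkd1, and Itpa (1.24 ± 0.25, limma adjusted p = 0.000113) and Slc9a8 (1.36 ± 0.26, limma adjusted p = 0.000113) rose. With TNF 0 of 14 were called (0.0%), with 3 at an unadjusted p under 0.05.

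Some upstream flanks were listed at more than 1 age. The lists differ in size and hold only regions that differed at that age. No overlap share of all listed regions is given here, so the shares have no baseline. Of the 643 flanks at 3 weeks and the 102 at 8 weeks, 18 overlapped, which is 2.80% and 17.6% of each list; 17 were lower at both ages and 1, Sbno2, higher at both. Between 3 and 11 weeks 23 overlapped (3.58% and 8.98%), of which 20 were lower at both, and between 8 and 11 weeks 3 did, all lower (2.94% and 1.17%). Zfp385a and Bcl9l had an upstream flank at all 3 ages. Zfp385a, a zinc finger protein that works with p53, had 77.1, 82.3 and 105 normalized reads in Tg197 at 3 weeks, against 124, 136 and 136 in WT. At 8 weeks it had 67.3, 102 and 101 in Tg197, against 213, 190.1 and 104 in WT, and at 11 weeks 106, 91.2 and 100.5 in Tg197, against 153, 127 and 146 in WT. The groups were apart at each age, at 8 weeks by less than 3 normalized reads, and log2 changes were -0.59, -0.86 and -0.52. Bcl9l, a coactivator of beta-catenin, had changes of -0.49, -0.63 and -0.58, the 8 week region lying nearer to the TSS and missing the authors' threshold. At 3 weeks Zfp385a and Bcl9l turned to 0.07 and 0.18 under scaling to all listed regions, and Bcl9l at 8 weeks to 0.08.

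Hrh3 and Evx2 were listed at 3 weeks, at 8 weeks and with TNF; they were singled out after their values were seen. Evx2 is the homeobox gene next to Hoxd13 (chr2:74499101-74500200). It had 156, 172 and 167 in Tg197 at 3 weeks, against 229, 229 and 217 in WT (log2 change -0.45 ± 0.16, limma adjusted p = 0.0204). At 8 weeks it had 99.4, 97.1 and 99.0 in Tg197, against 178, 154 and 118 in WT (log2 change -0.59 ± 0.25), and with TNF 134, 105 and 134 in TNF-treated, against 239, 189 and 163 in untreated cells (log2 change -0.65 ± 0.22, limma adjusted p = 0.046). No Evx2 group overlapped its control, but under scaling to all listed regions its change turned to 0.22 at 3 and 0.13 at 8 weeks, and it was -0.15 without passing with TNF. Hrh3 had 64.4, 76.5 and 73.3 in Tg197 at 3 weeks, against 105, 105 and 127 in WT (log2 change -0.65 ± 0.22, limma adjusted p = 0.0182), and at 8 weeks 73.2, 98.4 and 95.8 in Tg197, against 215, 199.5 and 96.1 in WT, where WT library c lay inside the Tg197 range. Under scaling to all listed regions Hrh3 turned to 0.02 at 3 weeks and was -0.14 at 8 weeks and -1.40 with TNF. The 8 week and TNF tables share their WT libraries, so their values are only set side by side.

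The genes beside upstream flanks had CpG-rich promoters, like those beside the other listed promoter regions. Of the 1165 flanks 1144 matched a RefSeq gene by accession and 895 had a promoter sequence. The median ratio of observed to expected CpG in those promoters for the flanks was 0.76, 0.79 and 0.75 at the 3 ages, youngest first, and 0.80 with TNF. It was 0.75, 0.75, 0.74 and 0.77 for genes with downstream flanks, 0.78, 0.77, 0.75 and 0.78 for genes with regions within 1 kb, and 0.39 over all 27025 genes of the sequence table, most of which have no listed region. Spacings were taken from every annotated start of a gene, not tied to the deposited TSS, so genes with more starts had more chances to match. Going by these spacings, another annotated start fell within the flank for 8 of 62 flanks with a higher and 20 of 833 with a lower level, a contrast that was not tested. The higher ones included Sbno2 and Dcun1d1 with a further start of the same gene and Tgif2 with the start of Gm14230 on the opposite strand, and the lower ones Tfpi, an inhibitor of tissue factor, and Ebf1, a transcription factor of stromal and B cells.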

How the data were processed

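H3K4me3 was measured by ChIP-seq in 7 groups of 3 libraries, with 1 input library. The data were 4 tables made by the authors, 1 for each comparison, on mm9. Per the file headers, every region has 3 normalized counts per arm, computed by the authors and stored in a single cell, so libraries carry the letters a to c in stored order without a replicate number. The deposited averages are a signal equal to the mean of those values. The deposited enrichment is a ratio over input, whose scaling no source used here states. The authors' changes are on the log2 scale, and the deposited p-values and adjusted p-values come from their test, with a best-window p of at most 1e-04 in every listed region. The headers name only treatment and control, and the control arm was taken as WT since both 8 week tables held equal control reads in 162 of 162 values at 54 shared regions. The submitters' processing notes name BWA, TopHat, TopHat2, Cufflinks and Cuffdiff without their roles; no source used here names the region caller.

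Per library, all values (100.0%) were whole multiples of 1 step within 0.02 normalized reads, so relative depth, as reads per normalized read, was recovered; listed regions held 321448 to 2780941 reads per library, which sets the counting error. Limma 3.58.1 (R 4.3.3) with a variance trend was run on log2(normalized count + 0.5) over every region of a table, with Benjamini-Hochberg adjustment at 0.05; "rose" and "fell" mark regions past it, and "higher" and "lower" by the authors' adjusted p refer to the deposited test. Fold changes on that scale understate low regions. Since regions were listed for differing in these libraries, limma's p is no independent evidence that they differ. Flank-to-promoter ratios were tested the same way over all paired regions of a table, with the same limit. Only the limma fit of single regions was tried on simulated counts. There few regions changed and no library departed from its group, unlike in these data. The pair fits, library scalings, start matching and read recovery were not tested that way. Python 3.11.15, SciPy 1.17.1 and Matplotlib 3.10.9 were used for counts and plots.

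Named genes were, per comparison, the 7 largest rises and 7 largest falls past the authors' threshold with groups that do not overlap, every flank of a gene in 16 lists, genes listed at all 3 ages and the regions at the class limits; values of a few genes are not reported here. Members, lists and tests were chosen with earlier results of these data known. Alternatives were other pseudocounts, a minimum mean of 20, 2 library scalings, voom on recovered reads and leaving out each library. Reads from overlapping or antisense genes cannot be assigned to 1 gene by position.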

Additional observations from a re-analysis of the deposited data

Results flagged for a closer look

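Upstream flanks of 3 genes had opposite directions at 3 and 11 weeks under the authors' scaling, with groups that did not overlap at either age. Under scaling to all listed regions the opposite direction was lost: Tm9sf1 had 0.06 at 3 and 0.89 at 11 weeks, Arhgef17 0.09 and 1.01, and Hexa 0.02 and 0.67 on the log2 scale. With scaling by near-TSS regions the directions were opposite, but Hexa no longer passed at 11 weeks (0.18). Tm9sf1, a transmembrane protein of the secretory pathway, had 103, 87.5 and 111 normalized reads in Tg197 at 3 weeks, against 139, 139 and 187 in WT (log2 change -0.61), and 186, 155 and 163 in Tg197 at 11 weeks, against 114, 111 and 119 in WT (0.55). Arhgef17 had 151, 123 and 122 in Tg197 at 3 weeks, against 179, 202 and 208 in WT (-0.57), and 133, 136 and 129.8 in Tg197 at 11 weeks, against 99.3, 64.5 and 89.9 in WT (0.67). Hexa, a lysosomal hexosaminidase, had 75.5, 98.6 and 113 in Tg197 at 3 weeks, against 135, 159 and 150.3 in WT (-0.65), and 213, 197 and 194 in Tg197 at 11 weeks, against 164, 153 and 165 in WT (0.32), where it missed the authors' threshold. The difference between ages was not tested, since the tables were normalized separately. The regions of the 2 ages overlap without being identical.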

How the results depend on the processing

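Between groups in a table, 2 choices changed the results: library scaling and single libraries. With scaling to the median of all listed regions, flanks called by limma numbered 13, 2 and 69 by age and 17 with TNF, and the median change was 0.01, -0.16, -0.26 and -0.25. With scaling by near-TSS regions 80 were called at 8 weeks, and the medians were -0.99 at 3 weeks and -0.75 at 11 weeks. Under the first of these, log2 changes turned at 3 weeks for Aurkb (0.14), Col1a1 (0.17), Tnfaip2 (0.05), H2-DMa (0.01), Lox (0.08), Rela (0.07), Fbn1 (0.09), Myl9 (0.18), Cdc42 (0.06), Hoxa13 (0.04), Ccnd1 (0.19), Zfp385a (0.07), Bcl9l (0.18), Tm9sf1 (0.06), Arhgef17 (0.09), Hexa (0.02), Evx2 (0.22) and Hrh3 (0.02), at 8 weeks for Hoxa13 (0.04), Bcl9l (0.08) and Evx2 (0.13), and with TNF for Hoxd13 (0.07). These turns follow from the scaling itself, which sets the median of mostly lower regions near 0. At an authors' adjusted p of 0.001, 56 flanks passed at 8 weeks, 134 at 11 weeks and 85 with TNF.

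Leaving out 1 library at a time gave 0 to 638 calls at 3 weeks, 0 to 98 at 8 weeks, 247 to 251 at 11 weeks and, under TNF, 0 to 152. Median changes ran from -0.70 to -0.54, -1.23 to -0.70, -0.63 to -0.55 and -0.95 to -0.61. Flank-to-promoter calls ran from 0 to 39, 0 to 1, 8 to 9 and 0 to 8 in the same order. Set against the downstream flank of the same TSS, a choice added after seeing the data, 3 pairs were called at 3 weeks, 2 at 8 weeks and 0 with TNF; fewer regions entered these fits. Other pseudocounts, a minimum mean of 20, voom and flanks wholly upstream left each count of calls within 1.5 times its value, and the 42 genes with flanks that overlap between ages stayed within that range when 50% of the shorter region had to overlap (34) or genes were matched by symbol (51). A test by edgeR on recovered reads was not run. No paired analysis was possible because stored values are not tied to replicate numbers.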
